A study of Mus musculus with 28 samples.

Results

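The serpins were examined as a family in the liver, pancreas and lung of mice that expressed human APOBEC3B (A3B). Members were all genes whose symbol is Serpin, a clade letter from a to i and a digit, without symbols that end in -ps and a number (5 left out). The annotation still classes Serpina3h as a transcribed pseudogene and Serpinb10 as a polymorphic one, and both were kept. This gave 63 of the 39917 genes in the deposited tables, and all 63 were listed in both sets of libraries. Clade A held 25 members and clade B 27, clade E held 3, clades F and I held 2 each, and clades C, D, G and H held 1 each.

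Serpins are proteins that mostly inhibit serine proteases. An exposed loop of the inhibitor is cut by the protease like a substrate, and the serpin then changes shape and traps the enzyme in a dead complex. Hepatocytes secrete many clade A serpins, antithrombin (Serpinc1), heparin cofactor II (Serpind1), antiplasmin (Serpinf2) and C1 inhibitor (Serping1) into plasma. A few members lost the inhibitory role: Serpina6 carries corticosteroids and Serpina7 thyroid hormone in blood, and Serpinh1 is a collagen chaperone of the endoplasmic reticulum. Clade B serpins stay mainly inside cells, where they guard against proteases of the cell's own granules and lysosomes.

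The question was how the RNA of these genes differed between A3B mice and control mice within each tissue. A3B mice carried human APOBEC3B fused to turboGFP behind a tetracycline operator in the ColA1 locus (label A3B) together with the CAGs-rtTA3 driver, which is active in most tissues (label A3B + CAGS-rtTA). By the labels all mice were given doxycycline food at 625 ppm. A3B mice were adults of about 4 weeks when it began and were collected when ill. The sources differ on the controls. The study's methods say that control littermates received doxycycline food, but a legend describes the 2 control animals of set 2 as not given doxycycline. The labels and the study's list of mice give these 2 the same days as A3B mice. Set 2 held livers of 6 A3B and 2 control mice and pancreases of 6 A3B and 2 control mice, all labelled 10 days. Set 1 held 3 A3B and 3 control livers and 3 A3B and 3 control lungs. The A3B livers 23 and 28 were labelled 14 days, the A3B liver 70 and the A3B lungs 10 days, and the set 1 controls 15 days, although the study's list of mice gives no doxycycline for controls 88, 91 and 92 and a shorter time for control 87. Where controls had none, effects of doxycycline and of A3B cannot be told apart. Control mice mostly carried the A3B transgene alone. The control liver 11 carried both transgenes and was the only set 1 library that expressed Y-linked genes (33.6 TPM summed). The control lung 87 carried only the driver (label CAGs). The genotype labels of 4 pancreases go against their titles: A3B pancreases 44 and 137 are labelled A3B, and control pancreases 45 and 168 are labelled A3B + CAGS-rtTA. Titles and the study's list of mice set the groups here. Livers and pancreases of mice 44, 49, 125, 137, 153, 45 and 168 came from the same animals, as did the livers and lungs of mice 70 and 91.

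Set 2 libraries held 65161064 to 118976013 estimated counts, and set 1 was deposited as TPM (a level scaled to transcript length and to the library), so its depth is unknown. Libraries of the same group were far apart in places. The summed level of 6 hepatocyte markers was 30585 to 68194 TPM in A3B livers and 86136 to 135814 TPM in control livers of set 2. The A3B liver 49 of set 2 and the A3B liver 28 of set 1 had the lowest hepatocyte sums of their sets, and liver 28 also had 527 TPM of the macrophage gene Cd68 against 34.0 to 51.2 TPM in the other livers of set 1. In pancreas, 7 acinar markers summed to 9283 to 23687 TPM in A3B mice and 116417 to 121350 TPM in controls. In bulk tissue, fewer cells of a type and less RNA per cell cannot be told apart. The same 6 hepatocyte markers summed to 106 to 915 TPM in A3B pancreases and 48.9 to 63.6 TPM in control pancreases. In lungs they summed to 33.8 to 602 TPM in A3B mice and 28.99 to 555 TPM in controls. The lowest sums were not mostly Alb, which was at 1.19 TPM in control pancreas 168 and 0.331 TPM in control lung 87. Set 1 values came from reads with duplicates removed, so levels were not compared between sets.

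Short stretches of the promoters are shown because they bear on 2 points of the results: the copies of Serpina1 are hard to tell apart, and Serpina12, Serpina11 and Serpini2 serve as examples of matches to the motifs searched in members with called differences. Promoters (250 bases before the start, RefSeq, GRCm38.p6) were found for 53 of the 63 members. The 5 copies of Serpina1 below are all on chromosome 12, minus strand, and the capitals mark GTTAAT, a half-site of the hepatocyte factor HNF1.
Serpina1a (chr12:103863631-103863660): caataactgtggtgacattgGTTAATattc
Serpina1b (chr12:103738206-103738235): caataactgtggtgacattgGTTAATattc
Serpina1c (chr12:103904968-103904997): caataactgtggtgacattgGTTAATattc
Serpina1d (chr12:103773640-103773669): caataactgtggtgacattgGTTAATattc
Serpina1e (chr12:103956966-103956995): caataactgtggtgacattgGTTAATattc
All 30 positions were identical in the 5 copies. The transcripts also shared much of their sequence, to differing degrees: of all 31-base words in the annotated transcripts of Serpina1c, 14.2% occurred in no other gene, against 34.8% for Serpina1a, 35.3% for Serpina1d, 45.8% for Serpina1e and 55.3% for Serpina1b. How reads were divided among these copies is therefore uncertain, and the copies were also tested as a sum.

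The next 3 stretches are from genes whose RNA differed in the comparisons below, each on the minus strand of its chromosome. Capitals mark TTGCNNAA (a C/EBP-type site) in Serpina12, TTCNNNGAA (a STAT-type site) in Serpina11 and the reverse complement of GTTAAT in Serpini2.
Serpina12 (chr12:104044515-104044544): tagaaagaaagTTGCAAAAggtatgagtgg
Serpina11 (chr12:103989989-103990018): ttcccgtcagTTCCAGGAActgacctgaca
Serpini2 (chr3:75270200-75270229): tcatcatttatcATTAACttgatcacatgg
On either strand, GTTAAT was found in 11 of the 53 serpins with a promoter and in 6.43% of all 32851 promoters. For TTGCNNAA these were 12 and 9.56%, for TTCNNNGAA 8 and 7.02%, and for TATAAA 14 and 12.4%. A serpin was counted if any of its promoters matched, whereas the shares count each promoter singly. The units differ, so the counts and the shares cannot be set against each other directly. Other called members held matches too, among them Serpina5 and Serpinb12 (TTGCNNAA) and Serpina3g (TTCNNNGAA). No matches of different motifs overlapped in the serpin promoters. These matches are a description of letters and not binding sites.

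In control liver, serpin RNA was mostly from Serpina1 and Serpina3 copies, whereas control pancreas was dominated by a single member. In set 2, Serpina1 copies made up 59.0% to 65.3% of all serpin TPM in control livers and 51.1% to 69.8% in A3B livers. Serpina3 copies made up 16.9% to 23.0% and 18.3% to 30.97%, respectively. The summed TPM of the family was 33220 and 43232 in control livers and 10677 to 55061 in A3B livers, so these groups overlapped. In set 1 livers the family sum was 17997 to 21742 TPM in controls and 6744 to 13217 TPM in A3B mice, without overlap. Serpini2, the serpin of pancreatic acinar cells also known as pancpin, gave 68.6% and 77.6% of serpin TPM in control pancreas and 7.19% to 20.1% in A3B pancreas. Clade B gave 15.2% and 22.5% in control pancreas and 28.2% to 49.0% in A3B pancreas. In lung, Serping1 was the most abundant member, with 492 TPM ± 87.6 in controls (SD, n = 3) and 491 TPM ± 50.5 in A3B mice (SD, n = 3).

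**Figure D1:**
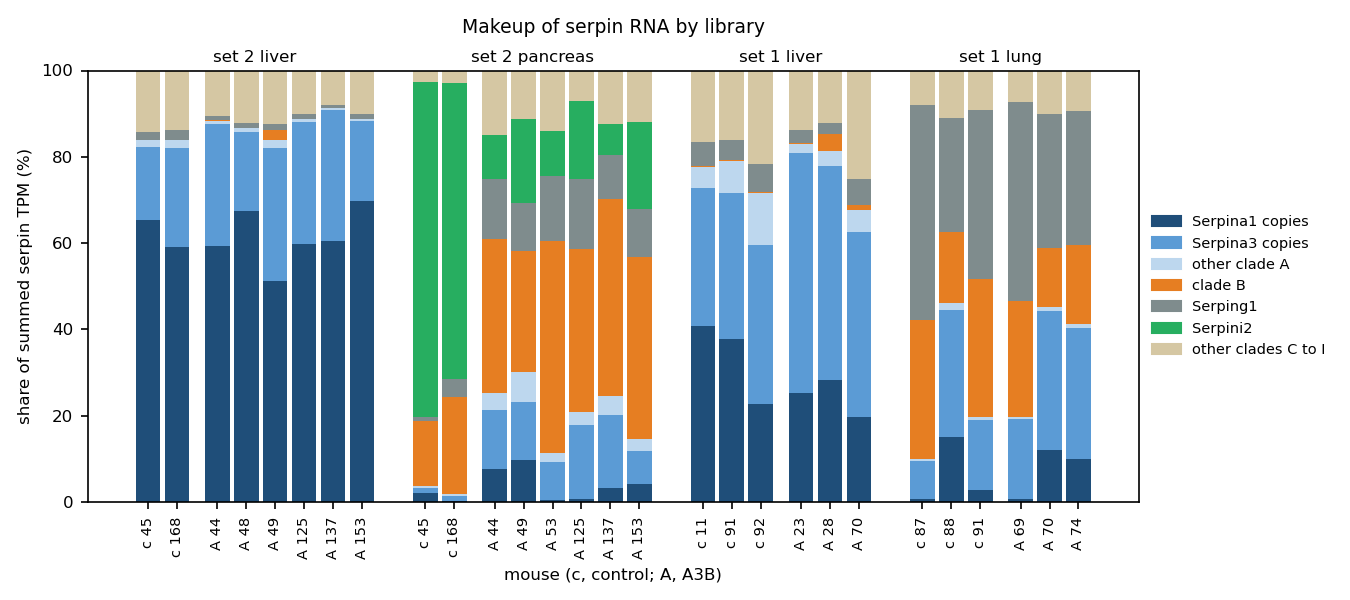
Share of the summed serpin TPM (y axis, percent) given by groups of serpins in each library (x axis, mouse numbers with c for control and A for A3B), for both livers, pancreas and lung. Serpini2 takes 68.6% and 77.6% in the control pancreases and at most 20.1% in the A3B pancreases, while livers of both groups are made up mostly of Serpina1 and Serpina3 copies.

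A3B livers had less RNA of the corticosteroid carrier Serpina6 and of Serpina12 (vaspin, an inhibitor better known from adipose tissue), and, over both sets, of the neighbouring genes Serpina5, Serpina9 and Serpina11. In set 2, Serpina6 and Serpina12 were the only members called among 36 tested, both lower in A3B mice (edgeR quasi-likelihood test, adjusted p under 0.05; 3.66% of all 17376 genes tested were called, 1.25% higher and 2.41% lower). On the TPM scale, 1 tested serpin lay above both controls in all A3B livers and 4 lay below, where 29.7% of all genes did not overlap (24.3% higher, 5.42% lower). On the TMM scale 0 lay above and 9 below, where 27.9% did not overlap (15.0% higher, 12.9% lower). In set 1, 4 of 29 tested members were called, all lower: Serpina12, Serpina9, Serpina5 and Serpina1c (limma on log2(TPM + 1); 7.93% of 11507 genes tested were called, 6.07% higher and 1.86% lower). In set 1, 14 tested serpins were lower in all A3B livers than in any control and 0 were higher, where 38.9% of all genes did not overlap (28.5% higher, 10.3% lower). Without control liver 11, which carried both transgenes, 3 of the 4 set 1 calls stayed, where 13.6% of all genes were called. The median log2 difference over the tested serpins was -0.59 in set 2 and -0.91 in set 1. Over all genes the median was 0.21 and 0.39. In the fit over the livers of both sets, 8 of 33 tested serpins were called, 7 lower and 1 higher, against 35.4% of all 11788 genes called, 7.65% lower and 27.7% higher.

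Serpina6 encodes corticosteroid-binding globulin, which carries most cortisol and corticosterone in blood. In set 2 it stood at 225 and 460 TPM in the 2 control livers and at 1.05, 17.2 and 31.3 TPM (lowest, median and highest) in the 6 A3B livers. The groups did not overlap, and A3B liver 49 was lowest. The log2 difference was -4.59 ± 0.81 (SE, adjusted p = 0.0205, edgeR), or 24.1-fold lower. In set 1, the controls had 411, 613 and 1115 TPM and the A3B livers 32.4, 0.295 and 119 TPM for mice 23, 28 and 70. The groups again did not overlap, and the difference of -5.24 ± 1.48 (SE) did not pass the threshold in set 1 alone (adjusted p = 0.0653, limma). Over both sets the difference was -4.90 ± 0.91 (SE, adjusted p = 0.00134, limma), and -4.04 without set 1 A3B liver 28. In set 2 the call was lost when A3B mouse 44, A3B mouse 137 or either control was left out, with differences from -5.07 to -4.25 and adjusted p up to 0.138.

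Serpina12 had 21.0 and 8.03 TPM in the control livers 168 and 45 of set 2 and 0.575, 0.695 and 1.47 TPM (lowest, median and highest) in the A3B livers. Every A3B liver was below both controls. The difference was -4.54 ± 0.47 (SE, adjusted p = 0.00372, edgeR), or 23.3-fold lower. Its size rests on the 2 controls: it was -3.58 without control 168 and -5.22 without control 45, called both times. In set 1 the controls had 96.2, 408 and 380 TPM and the A3B livers 5.69, 8.98 and 15.0 TPM, again with no overlap. There the difference was -4.60 ± 0.62 (SE, adjusted p = 0.0162, limma). Leaving out either control 91 or 92 or A3B mouse 23 took the set 1 call past the threshold (adjusted p up to 0.0888, differences from -5.27 to -4.23). Without the filter on low levels the set 1 call of Serpina12 was also lost (adjusted p = 0.0620, limma). The same held for those of Serpina5 (0.0702) and Serpina1c (0.0838).

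Serpina11, Serpina9, Serpina12 and Serpina5 lie in 1 stretch of chromosome 12 (GRCm38, 103980243 to 104106137). Serpina9, known from germinal-centre B cells, was low in all livers. It had 1.53 and 0.818 TPM in the set 2 controls and 0.0155 to 0.361 TPM in the A3B livers, and 3.96 to 4.30 TPM in the set 1 controls and 0.0878 to 0.174 TPM in the A3B livers. Both sets showed separate groups. Serpina9 differed by -2.19 ± 0.26 in set 1 (SE, adjusted p = 0.0130, limma) and by -4.06 ± 1.02 in set 2 (SE, adjusted p = 0.0581, edgeR). Without control 91 or 92 the set 1 call was lost (adjusted p = 0.0978 and 0.0889). The log2(TPM + 1) scale of set 1 understates the change of low genes such as this one.

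Serpina5, the protein C inhibitor, had 2.997 to 7.96 TPM in the set 1 control livers and 0.168 to 0.868 TPM in the A3B livers (-2.11 ± 0.38, SE, adjusted p = 0.0302, limma), a call lost without A3B liver 23 (0.0890), control 91 (0.154) or control 92 (0.156). In set 2 it was under 1.5 TPM throughout, and control liver 45 (0.0918 TPM) lay within the A3B range of 0 to 0.230 TPM. Serpina11 had 239 and 96.8 TPM in the set 2 controls and 12.9 to 127 TPM in A3B livers, which overlapped. In set 1 it had 152 to 246 TPM in controls and 31.3 to 122 TPM in A3B livers. Neither set alone passed for Serpina11, and over both sets the difference was -1.78 ± 0.49 (SE, adjusted p = 0.0122, limma), with adjusted p = 0.0629 without set 2 control 168. Over both sets, Serpina9 (-1.58 ± 0.23, adjusted p = 0.000229), Serpina12 (-3.78 ± 0.40, adjusted p = 3.29e-05) and Serpina5 (-1.36 ± 0.31, adjusted p = 0.00404) were also called lower (log2 differences with SE, limma).

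**Figure D2:**
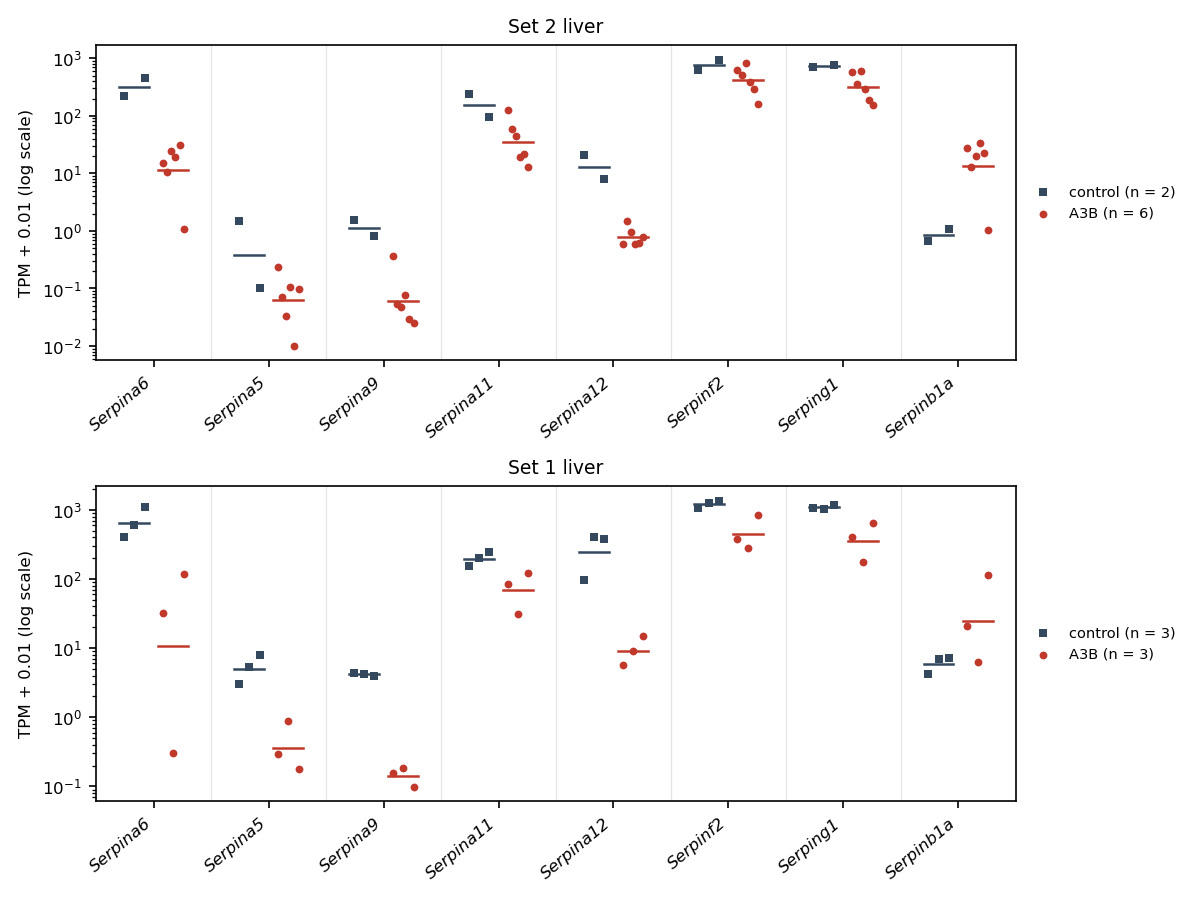
TPM plus 0.01 (y axis, log scale) of the 8 serpins called over the livers of both sets, for each control (squares) and A3B liver (circles) of set 2 (top) and set 1 (bottom); lines are geometric means. Serpina6, Serpina9 and Serpina12 show no overlap between groups in either set, and Serpinb1a is the only one of the 8 that is higher in A3B livers.

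Of the plasma serpins outside clade A made by hepatocytes, Serping1 and Serpinf2 were called lower. Serping1, the C1 inhibitor of complement and kallikrein, had 699 and 769 TPM in the set 2 controls and 152, 322 and 610 TPM (lowest, median and highest) in A3B livers. In set 1 it had 1019 to 1168 TPM in controls and 175 to 654 TPM in A3B livers. Over both sets the difference was -1.40 ± 0.38 (SE, adjusted p = 0.0104, limma), with every A3B liver below the controls of its set. Serpinf2, the main plasmin inhibitor, differed by -1.17 ± 0.38 over both sets (SE, adjusted p = 0.0269, limma). Its call was lost when any of 5 livers was left out (set 1 mice 23, 28, 91 and 92, and set 2 control 45), with adjusted p up to 0.0696. Antithrombin, Serpinc1, missed the threshold over both sets (-0.83 ± 0.36, SE, adjusted p = 0.0793, limma), and so did Serpinf1, the pigment epithelium-derived factor (-0.93 ± 0.45, SE, adjusted p = 0.115, limma). The hepatocyte markers moved with these results: 3 of 6 were called lower over both sets, with a median difference of -1.03, and the part of hepatocyte content in the serpin differences was not tested. Serpind1 was listed at 0 in all 12 libraries of set 1, where it overlaps Pi4ka on the other strand, so its set 1 value is not read here. The zeros did enter the fits over the livers of both sets and of set 1 minus set 2. Serpind1 was 1 of the 33 serpins tested there and was called in neither.

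Serpina3n and Serpina3k were not called in liver, and of the Serpina1 copies Serpina1c was called in set 1. Serpina3n, which encodes an antichymotrypsin-like inhibitor induced by inflammatory cytokines, had 265 and 412 TPM in set 2 controls and 94.4 to 1684 TPM in A3B livers, so the A3B group spread on both sides of the controls. Its difference was 0.63 ± 0.88 in set 2 (SE, adjusted p = 0.705, edgeR) and 0.50 ± 0.32 in set 1 (SE, adjusted p = 0.312, limma). Serpina3k, the most abundant member in set 1 livers, differed by -0.20 ± 0.64 (SE, adjusted p = 0.882, edgeR) and -0.73 ± 0.37 (SE, adjusted p = 0.210, limma). As a sum, the 6 Serpina1 copies differed by -0.44 ± 0.68 in set 2 (SE, adjusted p = 0.737, edgeR) and by -1.41 ± 0.39 in set 1 (SE, adjusted p = 0.0621, limma). Among single copies, Serpina1c was called in set 1 (-1.72 ± 0.38, SE, adjusted p = 0.0414, limma), with 833 to 1493 TPM in controls and 239 to 457 TPM in A3B livers, a call lost without A3B liver 23 or any 1 of the controls (adjusted p up to 0.190). Serpina1e varied most between libraries, from 4.91 to 2155 TPM in the A3B livers of set 2 and from 105 to 2530 TPM in the control livers of set 1.

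Serpinb1a was the one member called higher over the livers of both sets. It encodes an intracellular inhibitor of neutrophil elastase and related proteases. In set 2 it had 0.646 and 1.06 TPM in controls, 12.7 to 34.3 TPM in 5 A3B livers and 1.01 TPM in A3B liver 49. In set 1 it had 4.14 to 7.26 TPM in controls and 20.8, 6.31 and 113 TPM in the A3B livers of mice 23, 28 and 70. The groups overlapped in both sets because of livers 49 and 28. Over both sets the difference was 2.50 ± 0.69 (SE, adjusted p = 0.0129, limma), and it was 3.29 with adjusted p = 5.93e-05 (limma) without these 2 livers, a choice made after seeing the data. The 5 neutrophil markers summed to 4.09 to 95.6 TPM in A3B livers and 2.79 to 4.2 TPM in controls of set 2, and to 11.9 to 117 and 9.5 to 21.9 TPM in set 1, with 2 of the 3 tested over both sets called higher, and their part in this result was not tested. In the combined fit, leaving out control 168 of set 2 gave an adjusted p of 0.0501. Livers 49 and 28 stood apart in another member as well: Serpinb6a was at 211 TPM in liver 49 and at 4.56 to 32.1 TPM in the other A3B livers of set 2, and at 223 TPM in liver 28 and at 16.8 and 19.3 TPM in the other A3B livers of set 1.

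Whether the liver response differed between sets was also tested. The test of set 1 minus set 2 called 0 of 33 serpins and 0 of 11788 genes (limma, 0.00%), with 3 of 33 serpins and 448 genes at an unadjusted p under 0.05. The 3 serpins were Serpina5, Serpina9 and Serpina12, each with a larger fall in set 1 on the log2(TPM + 1) scale.

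In pancreas, serpins were called about as often as other genes. Of 46 tested members, 15 were called, 12 higher and 3 lower, where 31.9% of all 19142 genes tested were called, 17.0% higher and 14.9% lower (edgeR quasi-likelihood test, adjusted p under 0.05). On the TMM scale 19 serpins were higher in all A3B pancreases and 2 lower, where 44.0% of all genes did not overlap (25.1% higher, 18.9% lower). On the TPM scale these were 26 and 1, where 71.9% did not overlap (70.8% higher, 1.07% lower). The median log2 difference was 1.20 over the tested serpins and 0.09 over all genes. The balance of higher and lower genes in this tissue rests on the scaling. Of the 15 called serpins, only Serpini1 turned its direction with library totals or TPM. The scaling factors (TMM, trimmed mean of M values) were 0.210 and 0.443 in control libraries against 1.30 to 1.79 in A3B libraries. Scaled to library totals, the median over all genes was 2.29 and 31 serpins were called higher and 2 lower, where 71.5% of all genes were called. Without control 45, 13 of 52 tested serpins were called, 6 higher and 7 lower, where 19.0% of all genes were called, and 8 of the 13 were among the 15. Values below are TMM-scaled CPM (estimated counts relative to the scaled library size), not adjusted for length.

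Serpini2 fell. It had 2780 and 1598 scaled CPM in the controls 45 and 168 and 109, 221 and 279 scaled CPM (lowest, median and highest) in A3B pancreases. All A3B values were far below both controls, a difference of -3.37 ± 0.38 (SE, adjusted p = 0.000292, edgeR), or 10.3-fold lower. It was also lower on the TPM scale, at 126 to 445 TPM against 476 and 632 TPM. The 7 acinar markers were all called lower on the TMM scale, with a median difference of -4.21, where 14.9% of all genes were called lower. So were 7 of the 11 pancreatic proteases tested, among them Cela1 (-8.05 ± 0.97, SE, adjusted p = 0.000355, edgeR) and Ctrc (-7.16 ± 1.03, SE, adjusted p = 0.00125, edgeR). In TPM the acinar sum was lower in every A3B pancreas, but Cpa1 overlapped, at 3545 to 8769 TPM against 6700 and 7819 TPM in controls. The part of acinar cell content in the Serpini2 difference was not tested. Serpini1 (neuroserpin, an inhibitor of tissue plasminogen activator) was called lower by -0.90 ± 0.28 (SE, adjusted p = 0.0311, edgeR), but with library totals it was 1.34 higher and with TPM 1.41 higher. Serpinb12 was called lower, yet it had 0 counts in control 45 and 2.51 scaled CPM in control 168, so the call rests on 1 library, and without control 168 its sign turned (4.91, adjusted p = 0.525, edgeR).

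Among secreted serpins, Serpina3n, Serpine2 and Serpinf1 rose. Serpina3n had 2.74 and 24.9 scaled CPM in controls and 128, 216 and 358 scaled CPM in A3B pancreases (lowest, median and highest). The groups were separate and the difference was 4.08 ± 0.88 (SE, adjusted p = 0.00782, edgeR), or 16.9-fold. Its size rests on the controls, with 6.44 without control 168 and 3.26 without control 45, called both times. Serpine2, protease nexin-1, an inhibitor of thrombin and plasminogen activators at the cell surface, had 8.44 and 9.48 scaled CPM in controls and 40.1 to 75.7 scaled CPM in A3B mice. Its difference of 2.82 ± 0.33 (SE, adjusted p = 0.000328, edgeR) kept its call under all alternatives run, from 2.70 to 5.03. Serpinf1 rose by 1.68 ± 0.38 (SE, adjusted p = 0.00817, edgeR), from 13.9 and 18.1 to 33.0 to 79.0 scaled CPM. Serping1 rose by 1.62 ± 0.42 (SE, adjusted p = 0.0147, edgeR), from 42.0 and 118 to 195 to 299 scaled CPM. Without control 45 the call of Serping1 was lost (1.08, adjusted p = 0.0840, edgeR), and without control 168 that of Serpinf1 (1.51, adjusted p = 0.0551, edgeR), while Serping1 was then at 2.57.

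**Figure D3:**
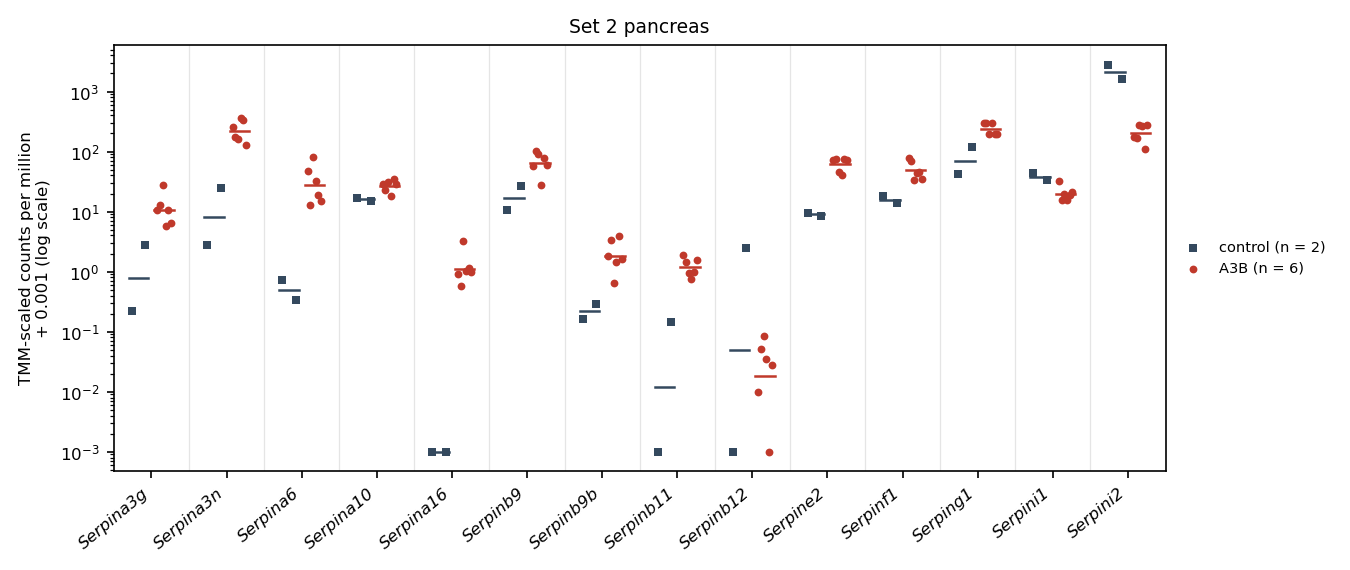
TMM-scaled CPM plus 0.001 (y axis, log scale) of 14 of the 15 serpins called in pancreas, for each control (squares) and A3B pancreas (circles); lines are geometric means. Serpina16 lies at 0 counts in both controls, Serpinb12 is above the A3B samples in only 1 control, and Serpini2 falls from 1598 and 2780 to at most 279.

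Serpina6, lower in A3B liver, was higher in A3B pancreas. It had 0.332 and 0.712 scaled CPM in control pancreases and 12.8, 25.6 and 80.4 scaled CPM in A3B pancreases (lowest, median and highest). The difference was 6.15 ± 1.07 (SE, adjusted p = 0.00337, edgeR), or 70.8-fold. In TPM, A3B pancreases had 14.8 to 112 and A3B livers 1.05 to 31.3. Per 1000 TPM of summed hepatocyte markers, Serpina6 was at 52.9 to 327 TPM in A3B pancreases but at 2.62 and 3.39 TPM in control livers and 0.0343 to 0.769 TPM in A3B livers. Serpina1b by the same measure was at 14.3 to 84.6 TPM in A3B pancreases and 55.4 and 76.8 TPM in control livers. In A3B livers it was at 71.5 to 151 TPM. Serpina6, Serpina1b and Alb were all highest in pancreases 44 and 49. The marker sum is an uncertain base in some pancreases: in A3B pancreas 53, Alb and Apoa1 were at 10.4 and 5.49 TPM in a sum of 146 TPM. The Serpina1 copies were not called in pancreas (sum, 0.81 ± 1.42, SE, adjusted p = 0.697, edgeR), but with library totals the sum was called (3.58, adjusted p = 0.0481, edgeR). Without pancreases 44 and 49, a choice made after seeing the data, the Serpina6 difference was 5.29 with adjusted p = 0.00185 (edgeR).

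Other clade A genes rose from low levels. Serpina16 had 0 counts in both controls and 963 counts in all over the 6 A3B pancreases, at 0.583 to 3.23 scaled CPM. Against a floor of 3 counts over both controls, its level was at least 26.9-fold higher, counting error only. Serpina3g, an inhibitor of lysosomal cathepsins in lymphoid and myeloid cells, rose by 2.998 ± 0.94 (SE, adjusted p = 0.0395, edgeR), from 0.219 and 2.73 to 5.80 to 27.7 scaled CPM, with the call lost without control 45 or A3B mouse 44, 53 or 137 (adjusted p up to 0.119; 5.83 without control 168), with the covariate for Y-linked expression (0.0782), without the filter on low counts (0.0666), and without A3B pancreases 44 and 137 (0.0853) or 44 and 49 (0.0760). Serpina10, the protein Z-dependent inhibitor of coagulation, rose by 0.78 ± 0.26 (SE, adjusted p = 0.0416, edgeR), a call lost in 8 of the 10 fits that left out 1 or 2 pancreases (adjusted p up to 0.148). The 11 Serpina3 copies summed rose by 2.51 ± 0.44 (SE, adjusted p = 0.00216, edgeR), mostly through Serpina3n (mean 13.8 scaled CPM in controls and 235 in A3B mice), while Serpina3k was at 27.4 and 32.0.

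In clade B, Serpinb9, the inhibitor of granzyme B that shields cytotoxic lymphocytes and dendritic cells, rose from 10.7 and 26.6 to 28.2 to 104 scaled CPM (1.90 ± 0.53, SE, adjusted p = 0.0216, edgeR). Its paralog Serpinb9b rose from 0.164 and 0.284 to 0.639 to 3.92 scaled CPM (3.20 ± 0.81, SE, adjusted p = 0.0135, edgeR). Serpinb11 rose from 0 and 0.142 to 0.740 to 1.89 scaled CPM (3.86 ± 0.88, SE, adjusted p = 0.00792, edgeR), a size that rests on 0 and 6 counts in the 2 controls (3.15 without control 45, 10.06 without control 168). Without control 45 the calls of Serpinb9 (1.41, adjusted p = 0.133, edgeR) and Serpinb9b (2.92, adjusted p = 0.0791, edgeR) were lost. That of Serpinb9 was also lost without A3B pancreases 44 and 137 (1.92, adjusted p = 0.0657, edgeR) and without 44 and 49 (1.82, adjusted p = 0.0632, edgeR), and its difference was 2.73 without control 168. The abundant clade B members did not pass: Serpinb1a differed by -0.18 ± 0.36 (SE, adjusted p = 0.727, edgeR) and Serpinb6a by 0.18 ± 0.34 (SE, adjusted p = 0.715, edgeR). With library totals, the Serpinb1 copies summed turned to 2.09 higher. Of 5 macrophage markers 3 were called higher in pancreas, as were 4 of 5 fibroblast and stellate markers (sums of 1125 to 3427 against 36.9 and 505 TPM, and 855 to 1312 against 37.4 and 164 TPM). Their part in the serpin differences was not tested.

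In lung, Serpina3n and Serpinb9b were higher, and 5 clade B members, Serpina3g and Serpinh1 were lower. Of 32 tested members, 9 were called, 2 higher and 7 lower, against 36.8% of all 13651 genes, 16.1% higher and 20.8% lower (limma on log2(TPM + 1)). All A3B lungs were above the controls for 2 serpins and below them for 8, where 53.9% of all genes did not overlap (23.3% higher, 30.6% lower). The median log2 difference was -0.17 over the tested serpins and -0.06 over all genes. Clade B accounted for 6 of the 9 calls, and of its 8 tested members 5 were called lower.

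Serpinb9b had 1.23, 1.68 and 1.75 TPM in control lungs and 6.62, 5.26 and 4.36 TPM in A3B lungs. All A3B lungs were above the controls, with a difference of 1.32 ± 0.16 (SE, adjusted p = 0.00354, limma). Serpina3n had 57.3, 102 and 66.2 TPM in controls and 144, 203 and 132 TPM in A3B lungs (1.10 ± 0.25, SE, adjusted p = 0.0179, limma). Serpinb9 itself had 78.0 to 99.6 TPM in controls and 63.8 to 80.7 TPM in A3B lungs and did not pass (-0.30 ± 0.13, SE, adjusted p = 0.112, limma).

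Among the members that were lower, Serpinb10 had 1.59, 2.05 and 3.37 TPM in control lungs and 0.311, 0.708 and 0.457 TPM in A3B lungs (-1.13 ± 0.21, SE, adjusted p = 0.00934, limma). The collagen chaperone Serpinh1 had 20.6, 33.7 and 24.2 TPM in controls and 8.82, 12.7 and 11.7 TPM in A3B lungs (-1.15 ± 0.21, SE, adjusted p = 0.00870, limma). Serpinb6a, an abundant inhibitor in lung, had 131 to 150 TPM in controls and 102 to 112 TPM in A3B lungs, and its difference of -0.38 ± 0.09 (SE, adjusted p = 0.0194, limma) was the smallest called. Serpinb1a fell by 0.77 (SE 0.21, adjusted p = 0.0285, limma), Serpinb8 by 0.52 (SE 0.11, adjusted p = 0.0138, limma) and Serpinb1b by 0.57 (SE 0.13, adjusted p = 0.0160, limma). Serpina3g, higher in pancreas, was lower in lung (-1.79 ± 0.53, SE, adjusted p = 0.0461, limma). It had 9.53, 31.9 and 24.5 TPM in controls and 9.17, 3.62 and 3.59 TPM in A3B lungs. Its call was lost without A3B lung 70 or 74 or control lung 88 or 91 (adjusted p up to 0.136, limma). Without the filter on low levels it was lost too (0.0602). Without control lung 91 the count of calls fell to 5 (24.1% of all genes), with Serpina3n, Serpina3g, Serpinb1a and Serpinb6a lost (adjusted p from 0.0502 to 0.125, limma). Without A3B lung 70 it was 6 (22.7% of all genes), of which 4 were among the 9. Serpina3g and the clade B members Serpinb1a, Serpinb1b, Serpinb6a and Serpinb8 were then lost. Serpinb1a, Serpinb6a and Serpinb8 were also lost without other single lungs. Serpinb9b, Serpinb10 and Serpinh1 were called whichever lung was left out. The 5 macrophage markers summed to 922 to 954 TPM in A3B lungs and 1177 to 1272 TPM in controls, with 1 called lower, and the 5 fibroblast markers to 149 to 253 and 191 to 445 TPM. Their part in the lung differences was not tested.

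**Figure D4:**
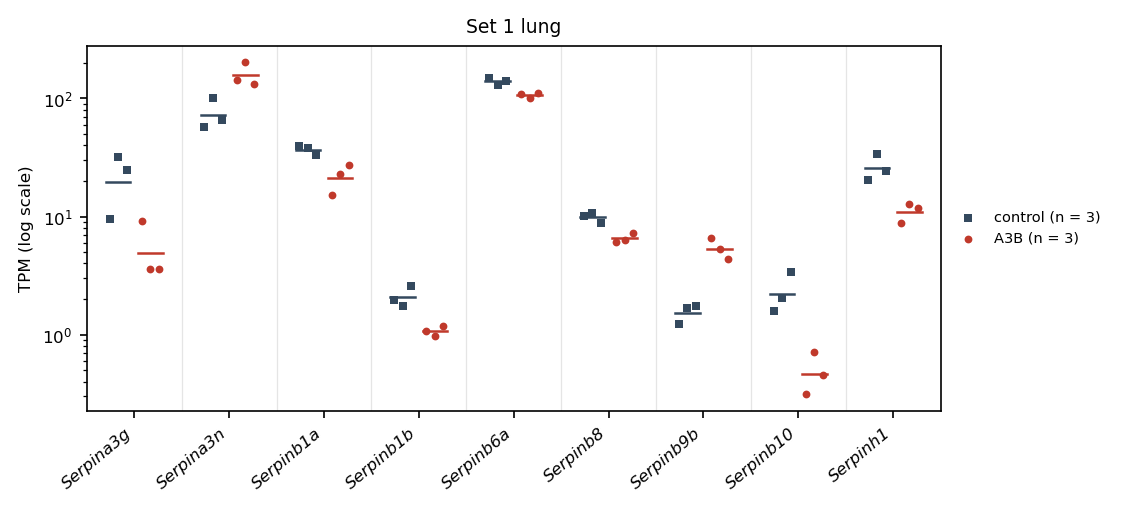
TPM (y axis, log scale) of the 9 serpins called in lung, for each of 3 control (squares) and 3 A3B lungs (circles); lines are geometric means. Serpina3n and Serpinb9b are higher in all A3B lungs, and the other 7 serpins are lower in all A3B lungs than in any control.

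The hepatocyte-type serpins in lung were not called, and their values went with Alb in single libraries. Serpina1b had 5.20, 104 and 10.5 TPM in control lungs 87, 88 and 91, where Alb was at 0.331, 245 and 23.6 TPM. In A3B lungs 69, 70 and 74, Serpina1b had 3.99, 98.6 and 74.2 TPM and Alb 3.83, 190 and 216 TPM. The groups overlapped for Serpina1b (0.77 ± 1.63, SE, adjusted p = 0.740, limma) and for Serpinc1 (0.98 ± 1.93, SE, adjusted p = 0.721, limma).

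Whether the response of a serpin differed between tissues was tested as an interaction. In set 2, 10 of 51 tested serpins were called for pancreas minus liver, 8 more positive and 2 more negative in pancreas, against 11.9% of all 19927 genes, 6.87% and 5.02% (edgeR). The response was more positive in pancreas for Serpina6 (10.88 ± 1.69, SE, adjusted p = 0.00250), Serpine2 (3.98 ± 0.60, SE, adjusted p = 0.00194), Serping1 (3.17 ± 0.77, SE, adjusted p = 0.0171), Serpinf1 (2.87 ± 0.77, SE, adjusted p = 0.0257), Serpinh1 (2.28 ± 0.65, SE, adjusted p = 0.0329) and Serpina10 (1.66 ± 0.52, SE, adjusted p = 0.0471), all by edgeR. It was more negative for Serpinb1a (-4.05 ± 1.13, SE, adjusted p = 0.0315, edgeR), a call lost with library totals. On the TMM scale Serpinb1a was above both controls in 5 of 6 A3B livers and within their range or below it in the pancreases. In TPM, every A3B pancreas was above both controls, at 202 to 365 TPM against 52.6 and 80.5 TPM. Calls for Serpina12, Serpina16 and Serpini2 rest on a tissue in which the gene was near 0 counts. Serpina12 had 1 count in the control pancreases and 102 in the A3B pancreases, a ratio of 8.55 (95% counting interval 1.4999 to 341). Serpini2 had no counts in the control livers and 43 counts over the A3B livers. With 1 mouse left out at a time, 9 fits in all, the call of Serpina10 was lost in 7 (adjusted p up to 0.267), those of Serpinh1 (up to 0.371) and Serpinb1a (up to 0.236) in 6 each, and that of Serpinf1 in 4 (up to 0.208). Serping1 was lost without control 45 or 168 (up to 0.204) and Serpina6 without control 45 (0.0760). Serpine2 kept its call in all 9, from 2.64 without control 168 to 4.73 without control 45 (edgeR). Of the low-count members, Serpina12 was lost in 6, Serpini2 in 5 and Serpina16 in 2.

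With the mouse as a replicate block, in the 7 mice that gave both tissues, 4 of 50 serpins were called in place of 10 of 51, where 7.96% of all genes were called: Serpina6 (11.32), Serpine2 (3.67) and Serping1 (3.36) as in the fit without the block, and Serpinb9 (2.27). In the same 7 mice without the block, 7 serpins and 11.7% of all genes were called. For set 1, lung minus liver called 4 of 32 serpins, against 10.7% of all 13477 genes, 1.94% more positive and 8.81% more negative in lung (limma): Serpina5 (2.14 ± 0.37, SE, adjusted p = 0.00769), Serpina9 (1.69 ± 0.29, SE, adjusted p = 0.00772), Serpina12 (3.76 ± 0.88, SE, adjusted p = 0.0249) and Serpinb9b (1.19 ± 0.24, SE, adjusted p = 0.0156), each by limma and each more positive in lung. The call of Serpina12 was lost in 7 of 12 fits without 1 library (adjusted p up to 0.0710) and with a pseudocount of 0.1 (0.126), and that of Serpinb9b with a pseudocount of 0.1 (0.322).

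**Figure D5:**
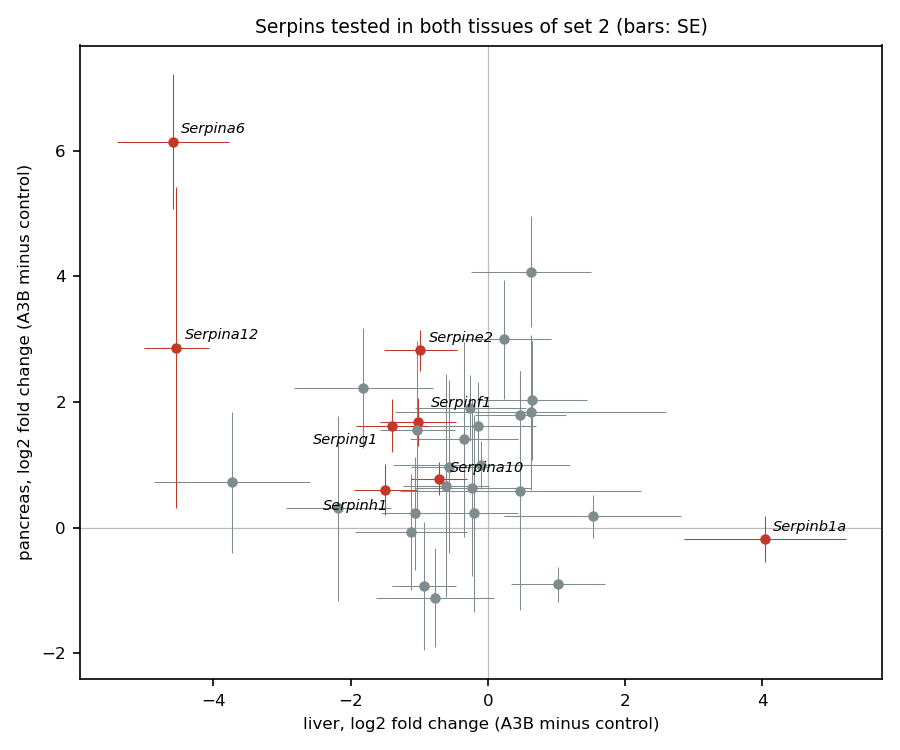
Log2 fold change (A3B minus control) in liver (x axis) and pancreas (y axis) of set 2 for 32 serpins tested in both tissues, with bars of 1 SE; Serpini2 is left out because its liver value rests on few counts, and the pancreas value of Serpina12 rests on 1 control count. The 8 red, named members are called in the test of pancreas minus liver; Serpina6 lies at -4.59 in liver and 6.15 in pancreas.

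Proteases and partners that serpins act on were counted from lists of known targets. In the livers of both sets, 4 of 8 coagulation and contact proteases were called lower: F7, F11, Klkb1 and Proc, from -2.26 to -1.02 (limma; 7.65% of all genes were called lower). Within single sets, F11 was called lower in set 2 and none in set 1, and in pancreas F7 (3.05) and F11 (3.78) were called higher (edgeR). Of 5 complement proteases, the Serping1 targets C1ra (-1.24 ± 0.41, SE, adjusted p = 0.0287, limma) and C1s1 (-2.14 ± 0.52, SE, adjusted p = 0.00602, limma) were lower. In pancreas, C1ra was higher (1.82 ± 0.37, SE, adjusted p = 0.00451, edgeR), as was its inhibitor Serping1. Plat, tissue plasminogen activator and a target of Serpine2, was higher in pancreas (2.74 ± 0.58, SE, adjusted p = 0.00667, edgeR) and in lung (2.84 ± 0.24, SE, adjusted p = 0.00186, limma). The urokinase receptor Plaur was also higher in both (2.86 ± 0.54, SE, adjusted p = 0.00363, edgeR; 1.83 ± 0.25, SE, adjusted p = 0.00475, limma). Plau, the urokinase itself, was lower in lung (-1.44 ± 0.42, SE, adjusted p = 0.0403, limma).

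Granzyme B (Gzmb), the target of Serpinb9, was higher in pancreas (2.36 ± 0.68, SE, adjusted p = 0.0230, edgeR) and lung (1.37 ± 0.29, SE, adjusted p = 0.0146, limma). Lysosomal cathepsins were higher in pancreas for 6 of 7 genes, from 1.59 (Ctsh) to 3.55 (Ctss), where 17.0% of all genes were called higher. Of 10 collagen genes and folding partners of Serpinh1, 8 were called higher in pancreas and 1 lower, the endoplasmic reticulum enzyme P4hb, with Col1a1 at 3.04 ± 0.41 (SE, adjusted p = 0.000606, edgeR). Serpinh1 itself did not pass in pancreas (0.61 ± 0.40, SE, adjusted p = 0.270, edgeR). In lung, Lox (2.43 ± 0.20, SE, adjusted p = 0.00173, limma), Col4a1 and Col4a2 were higher while Serpinh1 was lower.

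Of 17 acute-phase genes outside the family, 1 was called in each liver set, where 3.66% (set 2) and 7.93% (set 1) of all genes were called. This was Lcn2 (7.21 ± 0.88 in set 2, SE, adjusted p = 0.00527, edgeR; 4.63 ± 0.45 in set 1, SE, adjusted p = 0.0109, limma). Over both sets 4 were higher and 2 lower, where 35.4% of all genes were called. Of 10 hepatocyte regulators, Cebpd was higher in both liver sets (2.06 and 2.80), and Ghr, the growth hormone receptor, was lower in both (-3.04 and -2.24). Of the serpins, Serpina12 was called in both liver sets, lower each time.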

How the data were processed

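Members and gene lists were chosen with earlier results of these data known. RNA of mouse tissues was sequenced from stranded libraries (mm10/GRCm38). For set 2, the authors deposited estimated counts and TPM per transcript from kallisto; these were summed per gene by GENCODE M21 (116728 of 119414 transcripts matched), estimated counts were rounded, and edgeR 4.0.16 was run with TMM factors, its filter on low counts and quasi-likelihood tests (R 4.3.3). For set 1 the authors deposited a TPM table from reads without duplicates; log2(TPM + 1) was tested for genes averaging 1 TPM or more with limma 3.58.1, with trend and robust settings. The livers of both sets were fitted on TPM with set as a covariate. P-values were adjusted by Benjamini-Hochberg over all genes tested, with a threshold of 0.05. Common biological variation was 0.570 in liver and 0.468 in pancreas, and intervals cover counting error only. Columns of no sample: 0 used.

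Named members were those called in a comparison (at most 12 per direction), the most abundant member of each clade, and a fixed list. Mice with the same number are the same animal, so numbers pair liver and pancreas; correlations of deviations from group means between both tissues were -0.025 to 0.292 over 16748 genes. Alternatives were DESeq2 1.42.0, library totals, no filter, limma on TPM, a covariate for expression of Y-linked genes (over 3000 summed counts), other pseudocounts, quantile normalization and leaving out samples. The main fits of each tissue, of pancreas minus liver and of the livers of both sets were tested on simulated data. DESeq2 was tested so for each tissue of set 2, and the other fits were not. Motifs and word counts used Python 3.11.15 with pandas 2.3.3 and the RefSeq promoter table. No protein sequences were used here. Values of 1 member are not reported here.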

Additional observations from a re-analysis of the deposited data

Results flagged for a closer look

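Of 66 tests of the most distant sample among the 6 A3B libraries (log2(TPM + 1), Dixon's ratio, which picks about 1 in 20 groups by chance), 6 stood out. In liver, mouse 49 had 1.01 TPM of Serpinb1a, where the other A3B livers had 12.7 to 34.3, and 6.58 TPM of Serpinb6b, where the others had 0.290 to 1.44. In pancreas, mouse 153 had 0.438 TPM of Serpina3c (others 1.77 to 2.92), mouse 44 had 0.221 TPM of Serpina12 (others 0 to 0.0765), mouse 49 had 4.97 TPM of Serpina16 (others 0.683 to 1.21) and mouse 125 had 23.6 TPM of Serpinh1 (others 63.5 to 93.2).

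The response differed between tissues of the same set for the members called in the interaction tests. In set 2 these were, as pancreas minus liver on the log2 scale by edgeR, Serpina6 (10.88), Serpina10 (1.66), Serpina12 (7.68), Serpina16 (10.40), Serpinb1a (-4.05), Serpine2 (3.98), Serpinf1 (2.87), Serping1 (3.17), Serpinh1 (2.28) and Serpini2 (-9.11). The values of Serpina12, Serpina16 and Serpini2 depend on the fit's handling of counts near 0 and are no measure of size. In set 1, as lung minus liver by limma, they were Serpina5 (2.14), Serpina9 (1.69), Serpina12 (3.76) and Serpinb9b (1.19).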

How the results depend on the processing

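Counts of serpins called moved by more than 1.5 times in these cases, each given with the share of all genes called in the same fit. DESeq2 called 6 of 56 in set 2 liver (9.60%; edgeR 2 of 36, 3.66%), 24 of 60 in pancreas (7084 of 26201 genes; edgeR 15 of 46, 31.9%) and 17 of 61 for pancreas minus liver (13.8%; edgeR 10 of 51, 11.9%). Library totals called 33 in pancreas (71.5%) and 20 for pancreas minus liver (40.5%), and the covariate for Y-linked expression called 4 in set 2 liver (3.30%). Without a filter, 1 of 54 was called in set 1 liver (0.282%; 4 of 29 with it, 7.93%). A pseudocount of 0.1 gave 2 for lung minus liver (8.91%; 4 and 10.7% with 1). The replicate block gave 4 for pancreas minus liver (7.96%), and in set 1, pairing mice 70 and 91 by duplicateCorrelation as a replicate block gave 7 for lung minus liver (19.3%). Leaving out single samples gave 1 to 5 in set 2 liver (0.394% to 9.34%), 12 to 16 in pancreas (19.0% to 30.8%), 0 to 7 in set 1 liver (0.00862% to 13.6%), 5 to 9 in lung (21.9% to 33.7%), 1 to 11 for pancreas minus liver (0.397% to 15.1%), 2 to 6 for lung minus liver (4.21% to 22.7%) and 5 to 9 for the livers of both sets (25.2% to 42.3%). The lowest counts came without control 91 (set 1 liver and lung), control 45 (pancreas minus liver), A3B mouse 137 (pancreas), control 92 (lung minus liver, both livers) and, in set 2 liver, without either control, A3B mouse 44 or A3B mouse 137. The difference between sets stayed at 0 serpins under each alternative run.

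Directions turned for Serpini1 in pancreas (1.34 with library totals, 1.41 with limma on TPM), Serpinb12 in pancreas (-6.12 to 4.91 over fits without 1 library), the Serpina3 and Serpinb9 copies summed in set 2 liver (0.29 and 0.34 with library totals) and the Serpinb1 copies summed in pancreas (2.09 with library totals). The causes were not tested. With 2 control mice in set 2, each estimate used both, and a fit without 1 of them rests on the other alone. On leaving out samples, some differences in pancreas moved little, such as Serpine2 (2.70 to 2.92). Others moved far, such as Serpina3n (3.26 to 6.44). Without the A3B pancreases 44 and 137, whose genotype labels go against their titles, 11 serpins were called (23.1%). Without A3B livers 28 and 49, 9 were called over both sets (35.6%), and without A3B pancreases 44 and 49, 11 (23.8%), both chosen after seeing the data, as were the fits without single samples for lung minus liver and for the difference between sets.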

Other observations

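Serpina7, the thyroid hormone carrier on the X chromosome, split the A3B livers of set 2. Mice 125, 137 and 153, with 12324, 8763 and 9309 counts summed over 4 Y-linked genes, had 0.4002, 0.820 and 0.357 TPM. Mice 44, 48 and 49, with 567, 1359 and 67.0 such counts, had 34.1, 4.97 and 117 TPM. The 2 control livers had 10.3 TPM (mouse 168, 7443.5 counts) and 14.1 TPM (mouse 45, 112 counts). The difference between A3B and control livers was 0.62 ± 1.98 (SE, adjusted p = 0.882, edgeR). In pancreas, Serpina7 was highest in A3B mouse 137, at 25.2 TPM, against 1.92 to 7.82 TPM in the other A3B mice. In set 1, control liver 11 expressed Y-linked genes and had 14.2 TPM of Serpina7. Controls 91 and 92 did not express them and had 9.11 and 3.02 TPM. This split was picked after seeing the data, and the share of all genes that split the same way was not counted.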
